A study of Mus musculus with 3 samples.

Results

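Among the RNAs held on chromatin of mouse macrophages, 556 genes of the provisional annotation classes TEC and sense_intronic stood at a TPM of at least 3 in each of 3 libraries. TPM is an abundance per unit of transcript length, relative to all RNA of a library. The genes were chosen by 2 criteria: every annotated transcript had the biotype TEC or sense_intronic, and the alignment-based gene table gave the stated TPM in replicates 1, 2 and 3. They are 556 of the 3542 genes of these classes and of 55536 annotated genes, or 15.7% of their classes against 16.1% of all annotated genes past the same threshold. Of the 556, 483 were TEC, 72 sense_intronic and 1 carried both labels. Because measured levels chose the genes, the levels are given as a description, with no test.

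The libraries were made after ribosomal RNA depletion from total RNA of chromatin. The cells were primary macrophages of strain C57BL/6J, grown in culture from bone marrow. All 3 had the same treatment, with no untreated group: 100 ng/ml Lipid A, the Toll-like receptor 4 ligand within lipopolysaccharide, was given for 12 h, removed for 12 h and given again at 100 ng/ml for 120 min. RNA input was 1 µg, 250 ng and 500 ng in replicates 1, 2 and 3. The labels call the libraries biological replicates without naming separate animals, so each SD describes variation among these preparations, technical variation included.

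TEC is a GENCODE class for regions with transcript evidence, mostly unspliced, that still await experimental proof of a gene. A sense_intronic transcript is a noncoding transcript inside an intron of another gene, on the same strand, with no exon overlap. Chromatin preparations keep RNA that is still being made, so unspliced introns of the enclosing gene, here called the host, are well represented in them. Reads from such an intron and reads from a separate transcript inside it have the same sequence, and gene-level counts cannot tell them apart.

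Annotated edges of these genes are shown first, because some lie within annotated miRNA hairpins. Gm37795 (ENSMUSG00000102813.1, mm10 chr4:150068539-150070997, plus strand, TEC) began after miR-34a-3p, with 1 base between. C130023A14Rik (ENSMUSG00000102854.1, chr16:77646340-77649426, plus strand, TEC) began directly after miR-125b-2-3p, with 0 bases between. The mature miRNAs lie at chr4:150068517-150068537 and chr16:77646318-77646339 (RefSeq, GRCm38.p6, the assembly also called mm10). Their seeds, bases 2 to 8, are in capitals, and the first 30 bases of both genes (GENCODE M21 transcripts) follow in lower case.
mmu-miR-34a-3p: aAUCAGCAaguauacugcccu
Gm37795 start: gaagtgctgcacattgttgggccgagaagg
mmu-miR-125b-2-3p: aCAAGUCAgguucuugggaccu
C130023A14Rik start: aggcggagggataccagcagcttgggacct

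The hairpins themselves overlapped the first 17 bases of Gm37795 and the first 4 bases of C130023A14Rik. Gm37296 (ENSMUSG00000104116.1, chr15:68338295-68341216, minus strand, TEC) likewise began within the Mir30d hairpin, with an overlap of 9 bases. These are the 3 of 556 genes that overlapped an annotated miRNA hairpin on their own strand, and 3 of the 2986 genes below the threshold did so too. Gm37795 had TPM values of 20.4, 25.3 and 26.2 in replicates 1, 2 and 3. C130023A14Rik had 6.80, 12.3 and 13.8, and Gm37296 had 8.62, 17.9 and 16.2. The hairpin genes had 0 counts in each library. The labels give a size selection of 250 to 400, and its part in these 0 counts was not tested. This feature was singled out after the values had been seen.

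Annotated 3′ ends were read for a poly(A) signal, the hexamer AATAAA or ATTAAA on the transcript strand, within the last 50 bases. It was present in 129 of 556 genes (23.2%) and in 893 of the 2986 genes of the same classes below the threshold (29.9%). The last 60 bases of some of the highest intronic genes that hold one are printed, with the hexamer inside the 50-base window in capitals. They lie at chr6:31108827-31108886 (minus strand), chr1:84132867-84132926 (minus), chr6:3336772-3336831 (minus), chr8:77368841-77368900 (minus) and chr14:25462328-25462387 (plus).
5330406M23Rik end: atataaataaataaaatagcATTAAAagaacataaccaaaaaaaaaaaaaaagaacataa
Gm37058 end: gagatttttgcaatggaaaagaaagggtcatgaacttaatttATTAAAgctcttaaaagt
Gm43197 end: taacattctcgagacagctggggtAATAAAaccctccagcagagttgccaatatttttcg
Gm45407 end: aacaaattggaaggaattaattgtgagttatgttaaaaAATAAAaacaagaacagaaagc
Gm47920 end: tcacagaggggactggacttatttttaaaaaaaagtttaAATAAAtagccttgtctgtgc

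In 5330406M23Rik AATAAA also occurs before the window, in lower case, and an annotated run of A follows the marked hexamer inside the transcript. Genes with the hexamer had a median TPM of 9.23 ± 2.68 (SD, n = 3) and those without it 11.1 ± 2.91. A match shows only that these letters lie in the window. Bases past the annotated ends were not analysed here.

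Depth was 10293545, 17820066 and 17548564 expected counts in replicates 1, 2 and 3. The mean fragment length implied by the deposited effective lengths was 151, 258 and 252 bases, so replicate 1 was both the shallowest and the one of shortest fragments. Markers of the labelled cell type were present: all 10 macrophage markers had a TPM of at least 1 in each library. Of 34 markers of neutrophils, B, T, mast, dendritic and erythroid cells and fibroblasts, 1 did, and all 5 erythroid markers had 0 counts in each library.

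The 556 genes were of moderate abundance. Their median TPM was 7.52, 13.3 and 10.9 in replicates 1, 2 and 3, against 13.1, 17.9 and 15.4 for all 8924 annotated genes past the threshold. Mean TPM per gene ran from 3.46 to 110, with quartiles at 6.66 and 17.1, and 112 genes had a mean of at least 20. Together they held 1.84 ± 0.08% (SD, n = 3) of all counts of annotated genes and 86.3 ± 1.46% of the counts of their classes. Of the 3542 genes of these classes, 1548 had 0 counts in each library. A larger share of sense_intronic genes (22.0% of 327) than of TEC genes (15.0% of 3213) passed, though at lower medians of 7.89 ± 1.13 against 10.9 ± 2.90 TPM. The shares are not matched for context, since sense_intronic genes lie in introns by definition. Of all 1947 same-strand intronic genes of both classes, 22.4% passed.

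By TPM, replicate 1 was the most limiting library. In it 590 genes of these classes reached a TPM of 3, against 784 and 740 in replicates 2 and 3. Just inside were Gm44044 at 3.01, 6.18 and 4.93, Gm37139 at 3.02, 6.64 and 5.78 and Gm44982 at 3.04, 4.71 and 3.13. Just outside were Gm43360 at 2.98, 9.87 and 7.74, Gm37183 at 2.98, 7.18 and 5.59 and Gm28229 at 2.97, 10.1 and 9.14. In replicate 2 the 3 genes outside were all higher than the 3 inside, and in replicate 3 the values overlapped.

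The highest gene was Gm37084 (ENSMUSG00000102856.1, chr1:131086252-131092149, minus strand, TEC), a single block of 5898 bases in an intron of Mapkapk2, the gene of the kinase MK2 that acts below p38 in cytokine production. It had 90.2, 138 and 101 TPM, from 6353, 12136 and 9830 counts. Its host had 97.9, 74.0 and 67.1 TPM, so by alignment the intronic gene lay below the host in replicate 1 and above it in replicates 2 and 3. By the read-based quantification, made from the reads directly, it lay below in each, at 86.3, 99.6 and 77.4 against 212, 188 and 163 TPM. Gm49125, in an intron of the phospholipase gene Ddhd1, came next with 93.4, 95.4 and 98.4 TPM. The libraries lay close together in TPM, while by log2 CPM (counts scaled to library size) its SD of 0.27 was near the median SD of the 556 genes, 0.28. Gm49730 had 93.1, 94.3 and 88.2 TPM and overlapped an exon of Parp14, an interferon-stimulated ADP-ribosyltransferase gene with 642, 854 and 735 TPM. Reads of that shared exon can be assigned to either gene, which makes the level of Gm49730 uncertain.

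Other leading genes lay in Cers6 (a ceramide synthase), Prkcb (protein kinase C beta), Lncpint (a long noncoding RNA), Pid1, St3gal5 (which makes ganglioside GM3), Mtdh and Nfkb1. Gm37666 in Cers6 had 104, 91.7 and 69.04 TPM, and 5330406M23Rik in Lncpint had 77.7, 116 and 65.0. The intronic gene 9930017N22Rik in Mtdh varied little in TPM, at 59.6, 63.1 and 63.1, with an SD of 0.20 by log2 CPM. The spread was widest for Gm47089, in Maml2, with 36.1, 25.8 and 197 TPM. This gene is 166 bases long, its effective lengths were 31.7, 7.46 and 7.39 bases, and its TPM rested on 14, 3 and 25 counts. Its rank is thus set by very few reads, and 17 of the 556 genes had under 20 counts in some library.

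**Figure D1:**
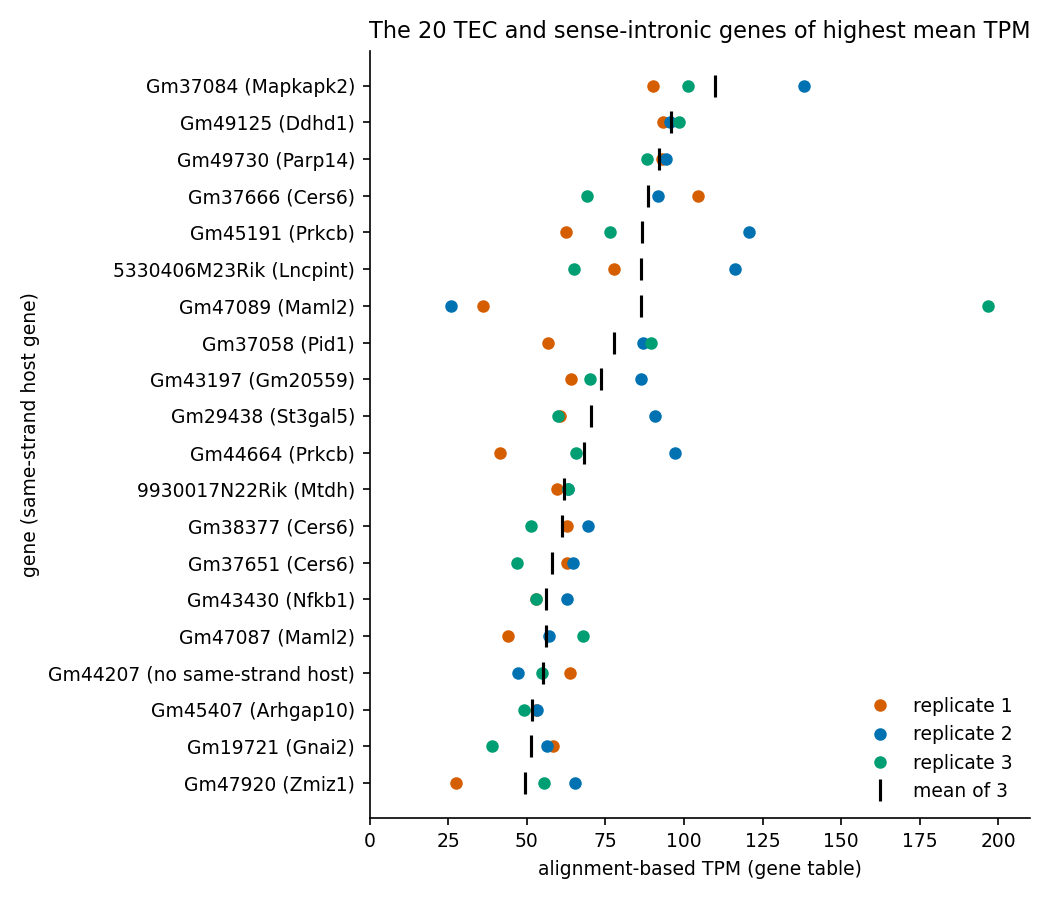
TPM of the 20 highest genes in each library (points, 1 colour per replicate) with the mean of the 3 (black tick), on a linear axis, with the same-strand host in parentheses. Gm49125 and 9930017N22Rik show replicates close together in TPM, while Gm47089 runs from 25.8 to 197.

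The highest sense_intronic genes were of similar order. Gm47920, in Zmiz1, a gene of a transcriptional coregulator, had 27.3, 65.1 and 55.3 TPM. Gm29488 in Srgap2 had 26.4, 68.6 and 41.7, and Gm48302 in the elongation factor gene Ell2 had 25.9, 71.6 and 34.4. All 3 were lowest in replicate 1 and highest in replicate 2.

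Most of these genes lay inside other genes. Of the 556, 436 (78.4%) were in an intron of a same-strand gene without touching its exons and 26 (4.68%) overlapped a same-strand exon. A further 75 (13.5%) overlapped a gene on the opposite strand only, 6 lay within 5000 bases past a gene end, 6 within 5000 bases before a gene start and 7 (1.26%) apart from any gene that spans at least 200 bases, so that hairpin genes such as Mir34a do not count here. Among the 2986 genes of the same classes below the threshold, 50.6% were in a same-strand intron and 627 were apart. Read the other way, 22.4% of the annotated same-strand intronic genes passed the threshold, against 1.104% of the 634 genes apart.

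The 462 genes with a same-strand host had 335 different hosts, 319 of them protein-coding. Host level had not been used to choose the genes, but the 2 groups of hosts were set by the genes' levels in these same libraries. Each host was also the overlapping same-strand gene of highest mean TPM. The comparison is therefore a description. With hosts taken from the annotation alone, the difference given below was 6.85 ± 0.24 (SD, n = 3). Host genes had a median TPM of 30.5, 39.1 and 31.9 in replicates 1, 2 and 3, while the 927 hosts that hold only genes below the threshold had 0.22, 0.20 and 0.23. The medians differed by 6.74 ± 0.26 (SD, n = 3) on the log2(TPM + 0.1) scale, in the same direction in 3 of 3 libraries. An exact sign-flip test over libraries, two-sided, gave p = 0.25, the value it takes whenever all 3 differences share a sign. It is also the smallest value 3 libraries allow. Of the hosts, 97.9% stood at a TPM of at least 3 in each library, against 26.3% of the other hosts and 16.1% of all annotated genes.

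The share of intronic and exonic genes past the threshold was higher at each step of host level. It was 0.314% (3 of 954) in hosts of a mean TPM under 1 and 1.37% (2 of 146) from 1 to 3. From 3 to 10 it was 14.8% (37 of 250), from 10 to 30 47.9% (158 of 330) and from 30 to 100 67.6% (165 of 244). In hosts of a mean TPM of at least 100, 87.4% (97 of 111) passed. The genes that passed in the lowest class were Gm37296, whose host Gm20732 had 0, 0.31 and 0.28 TPM, and Gm31748 and Gm37847, whose hosts were listed at 0. The last 2 rest on uncertain reads, since they have identical sequences and identical TPM of 6.39, 5.51 and 6.28.

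**Figure D2:**
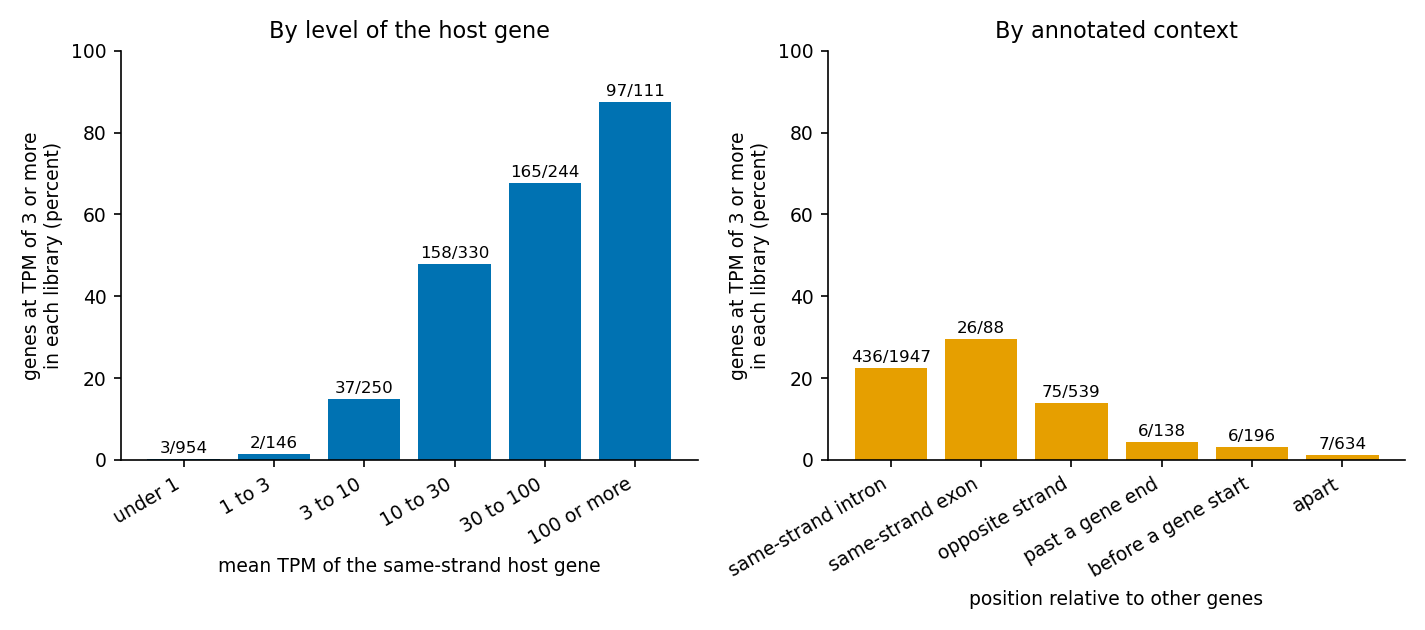
Percent of TEC and sense-intronic genes at a TPM of at least 3 in each library, by mean TPM of the same-strand host (left) and by annotated context (right), with genes past the threshold over all genes above each bar. The share climbs from 0.314% in hosts under 1 TPM to 87.4% in hosts of at least 100 TPM, and is 1.104% for genes apart from others.

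Identical copies recurred around Slc25a37, the gene of a mitochondrial iron importer, on chromosome 14. There Gm31748 and Gm37847, Gm37513 and Gm38378, and Gm20236 and Gm37094 formed 3 pairs, 6 genes in all, with the same transcript sequence and the same TPM. Gm20236 and Gm37094 were highest, each with 19.5, 22.4 and 24.7 TPM. The reads of each pair were shared out between its copies, so which copy they came from is unknown.

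Within a host, the intronic genes stood mostly below the host itself. On the log2(TPM + 0.1) scale the median difference to the host over 462 genes was -2.04, -1.67 and -1.70 in replicates 1, 2 and 3. For the 436 genes in introns only, the median was 23.6%, 30.8% and 29.5% of the host's TPM, with quartiles at 14.3 ± 1.64% and 54.5 ± 9.10% (SD, n = 3). Of the 462, 397 were below their host in each library (85.9%, against 57.1% of all 2035 genes of these classes with a host, many of them at 0 counts). Across the 436 genes, mean log2 levels of gene and host had a Pearson r of 0.459 and a Spearman rho of 0.439, a description over genes that share libraries and often hosts, and that all passed a threshold. TPM sets both genes on a scale per length, but the host's value counts spliced exons and the intronic gene's an unspliced block.

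Some hosts are genes of macrophage signalling and identity. Nfkb1, which encodes the NF-kB precursor p105 and its product p50, holds Gm43430 at 52.9, 62.8 and 53.0 TPM, against 381, 424 and 391 TPM for Nfkb1 itself. Irak2, a kinase gene of Toll-like receptor signalling, holds Gm43912 at 42.8, 39.3 and 28.7 TPM. Ptprc, which encodes the leukocyte surface phosphatase CD45, holds A130071D04Rik at 36.1, 43.5 and 30.1 TPM, 6.14% of its host. Etv6, a gene of an ETS-family repressor, holds Gm43982 at 42.5, 53.4 and 44.6 and Gm43984 at 34.5, 45.1 and 33.6 TPM. Mef2a, a transcription factor gene, holds Gm44667 at 20.1, 31.4 and 24.97 TPM and Gm44668 at 4.77, 13.0 and 10.4. Dleu2, the noncoding host of miR-15a and miR-16-1, holds Gm37472 at 19.3, 39.6 and 24.4 TPM and Gm37420 at 18.04, 34.7 and 20.7.

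Counted by list, few response genes could hold such a gene at all. Of 34 interferon-stimulated genes, all 34 at a TPM of at least 3, 1 (Parp14) held an annotated TEC or sense-intronic gene, and it passed. Of 28 genes of NF-kB signalling and feedback, 2 held one and both passed. None of 34 cytokine and chemokine genes held one. Of 24 macrophage regulators 2 held one, and both hosts had genes past the threshold, 4 in all. Of 40 receptor and effector genes 2 held one, and Ptprc alone had one past the threshold. Of 14 measured nuclear long noncoding RNAs 1 (Dleu2) held any. Among all hosts, 335 held a gene past the threshold and 927 held only genes below it. By host level, the share of genes past the threshold was 47.9% from 10 to 30 TPM, 67.6% from 30 to 100 and 87.4% from 100. With 1 or 2 hosts per list, nothing is read from the counts by list.

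Against this pattern, 28 genes (6.06% of 462) exceeded their host in each library by alignment-based TPM, while 78 of all 2035 genes of these classes with a host did (3.83%). Since the genes were chosen for high levels, that share is given with nothing read from it. By read-based TPM 15 (3.25%) exceeded their host in each library, against 18.7% of the 2035. Only 9 of the 28 did so by both methods, and 15 of the 28 lay below their host in each library by reads. Among the 9 are Gm31748 and Gm37847, which have identical sequences and values and whose hosts were listed at 0. Also among them is Gm47089, which rests on 14, 3 and 25 counts by alignment.

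Maml2, the gene of a Notch coactivator, held 3 of the 9. It had 6.29, 4.82 and 4.35 TPM by alignment and 7.90, 6.87 and 6.87 by reads. Gm47087, from 2201, 3520 and 4636 counts, had 44.0, 56.9 and 67.7 TPM by alignment and 42.4, 39.1 and 49.6 by reads. Phxr4 had 36.9, 38.3 and 52.4 by alignment and 45.9, 40.1 and 54.4 by reads, and Gm47089 was the third. Gm48225, in the gephyrin gene Gphn (named, like Phxr4, after its values were seen), was also above by both, with 32.4, 55.8 and 58.6 against 20.96, 18.6 and 20.9 for the host by alignment, and 31.2, 38.4 and 42.1 against 23.2, 21.1 and 22.4 by reads.

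Other hosts changed sides with the method. Prkcb, at 37.6, 49.5 and 31.3 TPM by alignment, lay below Gm45191 at 62.4, 121 and 76.5 and Gm44664 at 41.4, 97.2 and 65.7. By reads Prkcb had 94.7, 113 and 86.2 and lay above Gm45191 at 61.4, 89.4 and 59.2 and Gm44664 at 42.4, 70.3 and 51.7. St3gal5 had 52.8, 49.9 and 32.9 TPM by alignment, below Gm29438 at 60.6, 90.8 and 59.8. By reads it had 205, 159 and 112, above Gm29438 at 62.5, 73.96 and 52.2. Etv6 likewise lay below Gm43982 and Gm43984 by alignment and above both in each library by reads, at 69.1, 67.4 and 61.6 TPM. In these hosts the values of the intronic genes moved less between methods than those of the host.

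**Figure D3:**
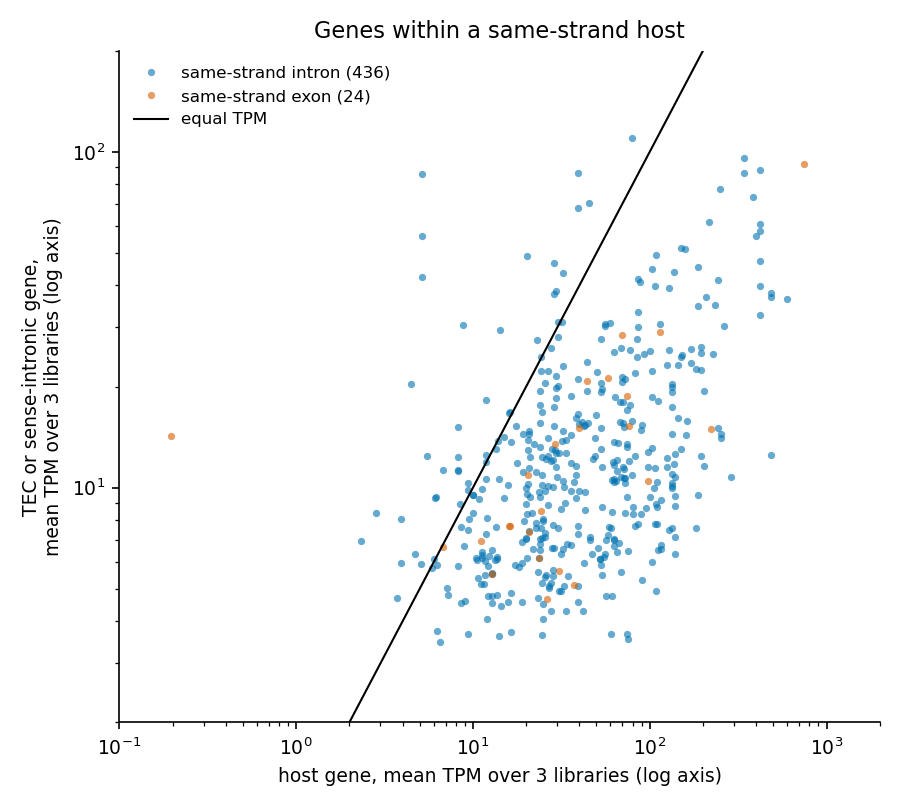
Mean TPM of each gene (vertical, log axis) against that of its same-strand host (horizontal, log axis), for genes in introns and genes over exons, with a line at equal TPM. All values are alignment-based. Most points lie below the line, and 2 exon genes whose hosts are listed at 0 are not drawn.

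Several hosts held a series of these genes along their introns. There were 73 hosts with more than 1, which together held 200 genes, and 29 with at least 3. In Prkcb, levels were highest at the 5′ end and lowest at the 3′ end. Gm45191 at 7.82% of the host length had 62.4, 121 and 76.5 TPM and Gm44664 at 21.5% had 41.4, 97.2 and 65.7. Gm44663 at 33.4% had 15.1, 29.7 and 18.4 TPM, Gm44745 at 50.9% had 7.96, 22.8 and 19.0, and Gm44746 at 87.6% had 3.60, 6.53 and 3.60. The order was the same in replicates 1 and 2, and in replicate 3 Gm44663 and Gm44745 stood in the reverse order.

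Med13l, a Mediator kinase-module gene, had a weaker and uneven gradient over its 5 genes. It ran from 19.5, 32.9 and 30.9 TPM for Gm43788 to 12.4, 13.4 and 13.3 for Gm43051. Gm43052, with 12.4, 22.6 and 22.9, lay nearer the 3′ end than Gm43274, with 11.3, 17.5 and 16.3, yet above it in each library. Cers6 did not follow such a gradient. Its 6 genes ran from 32.7 ± 3.19 (Gm37747, at 51.4% of the length) to 88.4 ± 17.9 TPM (Gm37666, at 60.4%; SD, n = 3). Mir99ahg, the noncoding host of miR-99a, let-7c and miR-125b-2, held 10 of these genes between 7.56 ± 1.78 TPM (Gm37241) and 20.3 ± 7.89 TPM (Gm37606), with the Mir99ahg gene itself at 134 ± 42.3.

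Over the 29 hosts with at least 3 of these genes, the one nearest the 5′ end was higher than the one nearest the 3′ end in each library in 18 hosts and lower in each library in 4. With each host cut into 3 equal lengths, intronic genes in the 5′ part had a median of 32.7 ± 6.19% of the host's TPM (189 genes), those in the middle 29.9 ± 3.19% (155) and those in the 3′ part 19.1 ± 1.04% (92; SD, n = 3). Only genes past the threshold entered these counts and medians, and genes of the same classes below it in these hosts were left out. Host levels moved with position as well. The hosts' median TPM was 33.9 ± 5.50, 35.2 ± 4.65 and 51.2 ± 5.21 in the same order, and their part in the lower percentage was not tested. The genes' own median TPM was 12.2 ± 3.07 in the 5′ part, 9.82 ± 2.56 in the middle and 9.75 ± 2.43 in the 3′ part.

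**Figure D4:**
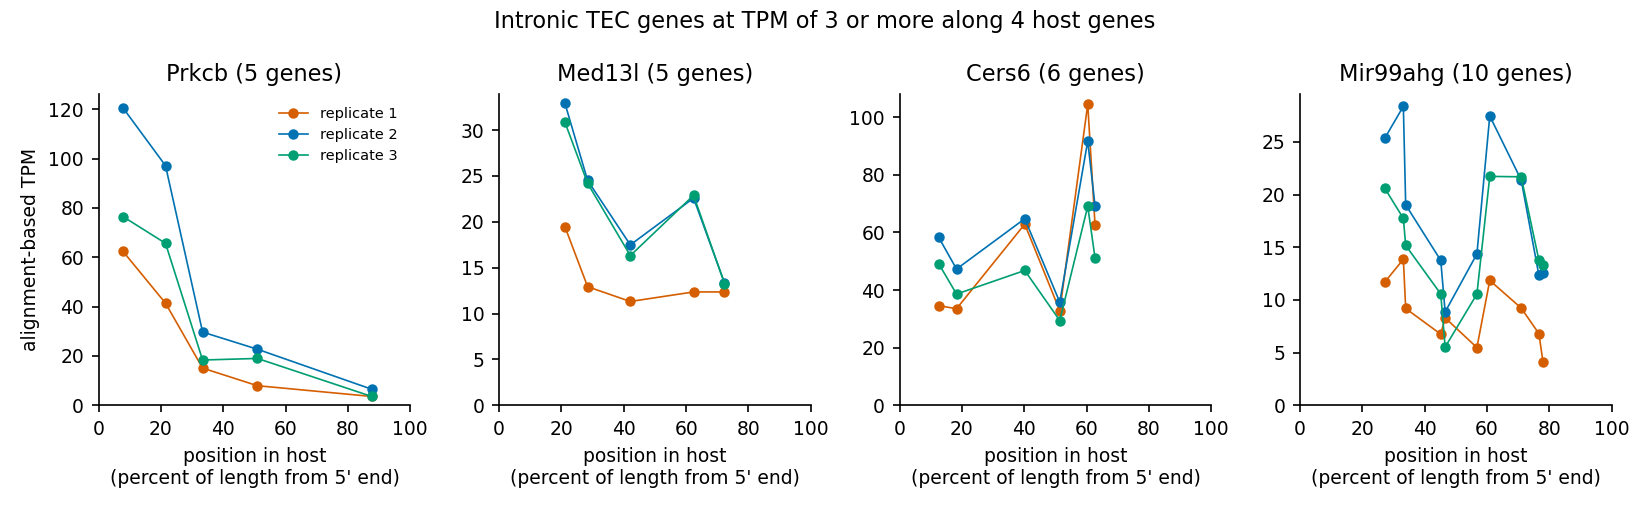
TPM of each intronic TEC gene past the threshold (vertical, linear axis from 0, a different scale per panel) by its position from the 5′ end of the host (horizontal, percent of host length), 1 line per replicate. Along Prkcb the levels are lower with each step from the 5′ end, with 1 exchange in replicate 3, while Cers6 and Mir99ahg show no single direction.

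The 75 genes that overlapped a gene on the opposite strand only had a median of 6.70, 13.2 and 9.61 TPM, against 7.97, 13.4 and 11.2 for those in same-strand introns. In 43 the overlap fell in introns of the opposite gene only and in 32 it covered an exon. The sources used here do not give whether counting used strand, and reads of the 2 strands therefore cannot be told apart. The opposite gene was the higher one, by mean TPM, for 66 of the 75. Gm44207, opposite to the semaphorin receptor gene Plxna1 (137 ± 49.5 TPM), was highest with 63.8, 47.0 and 54.7 TPM. Gm43980, opposite to the splicing factor gene Tra2a, had 21.9, 60.04 and 58.3, low in replicate 1. Gm44981, over an exon of the taurine transporter gene Slc6a6 (264 ± 91.5 TPM), had 46.3, 42.5 and 26.1. Gm43963, over an exon of Irak2 (207 ± 42.7), had 39.7, 32.6 and 24.1, and AC167363.2, over an exon of the cell-cycle inhibitor gene Cdkn1a, had 22.8, 47.1 and 32.2.

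Few genes stood outside others. Gm37795, the gene that begins after miR-34a, was the highest of the 7 that were apart. It was followed by Gm45553 at 13.7, 28.0 and 23.9 TPM and Gm45663 at 10.4, 15.6 and 12.9. Of the 6 before a gene start, Gm37352 was highest at 22.3, 38.3 and 29.1 TPM, and Gm9694 lay nearest to its neighbour, 63 bases before the start of Cep350, at 4.55, 5.45 and 7.19. Of the 6 past a gene end, Gm38275, 2247 bases past the macrophage-expressed gene Ms4a6d, led with 11.7, 20.97 and 13.5 TPM. Gm48621, 451 bases past the end of the kinase gene Cdk13, had 6.75, 9.85 and 8.74.

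The same libraries were quantified by 2 methods: the alignment-based one, which chose the genes, and the read-based one. Across the 556 genes they ranked alike, with a Pearson r of 0.821 between mean log2 TPM and a Spearman rho of 0.810, given as a description over genes that share libraries. The median difference, read-based minus alignment-based, was 0.16, -0.14 and -0.07 in replicates 1, 2 and 3 on the log2(TPM + 0.1) scale, so its sign was not the same in all libraries. All 8924 genes past the threshold had 0.40, 0.26 and 0.35, protein-coding genes 0.37 ± 0.07 and lincRNA genes 0.22 ± 0.13 (SD, n = 3). In each library the median of the 556 genes was thus below that of all genes past the threshold.

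Direction by gene showed the same. The read-based TPM was higher in each library for 208 of 556 genes (37.4%), against 66.8% of all genes past the threshold. It was lower in each library for 107 (19.2%), against 8.76%. More than 2 times higher in each library were 31 genes (5.58%, background 8.01%), and under 1/2 in each were 0, where the background was 0.482%. At 4 times there were 7 genes (1.26%, background 0.717%), and under 1/4 there were 0 (background 0.112%). The sense_intronic genes lay at 0.33 ± 0.03 and the TEC genes at -0.04 ± 0.16 on the log2 scale, and 11 of 72 and 20 of 483 exceeded 2 times. Length moved with this difference: genes under 1000 bases had 0.41 ± 0.09, those from 1000 to 3000 bases -0.02 ± 0.16 and those of at least 3000 bases -0.14 ± 0.21.

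A few genes were far apart between the methods. Gm16155 (ENSMUSG00000085409.1, sense_intronic, 338 bases of exon in an intron of Tmcc3) had 7.71, 6.96 and 5.56 TPM by alignment from 18, 11 and 10 counts. By reads it had 128, 126 and 91.5 TPM from 511, 525 and 388 counts. Gm47921 (ENSMUSG00000114539.1, sense_intronic, 328 bases of exon in an intron of Zmiz1) had 6.32, 4.80 and 3.61 against 50.1, 128 and 96.5. Its alignment-based values rest on 14, 7 and 6 counts. Gm36958, before a gene start, had 3.30, 8.94 and 7.01 against 74.2, 65.8 and 54.2 TPM. Gm42427, past a gene end, had 3.92, 7.30 and 5.50 against 45.4, 48.5 and 42.3, and Gm44183, opposite to the kinase gene Nek6, had 3.38, 13.2 and 7.33 against 44.5, 57.2 and 50.1. At the other end Gm44772 in Ppfibp2 had 9.19, 8.59 and 7.37 by reads against 18.6, 15.2 and 13.6 by alignment. As a fold, the methods differed more than the libraries did within either method in each of these 6 genes.

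**Figure D5:**
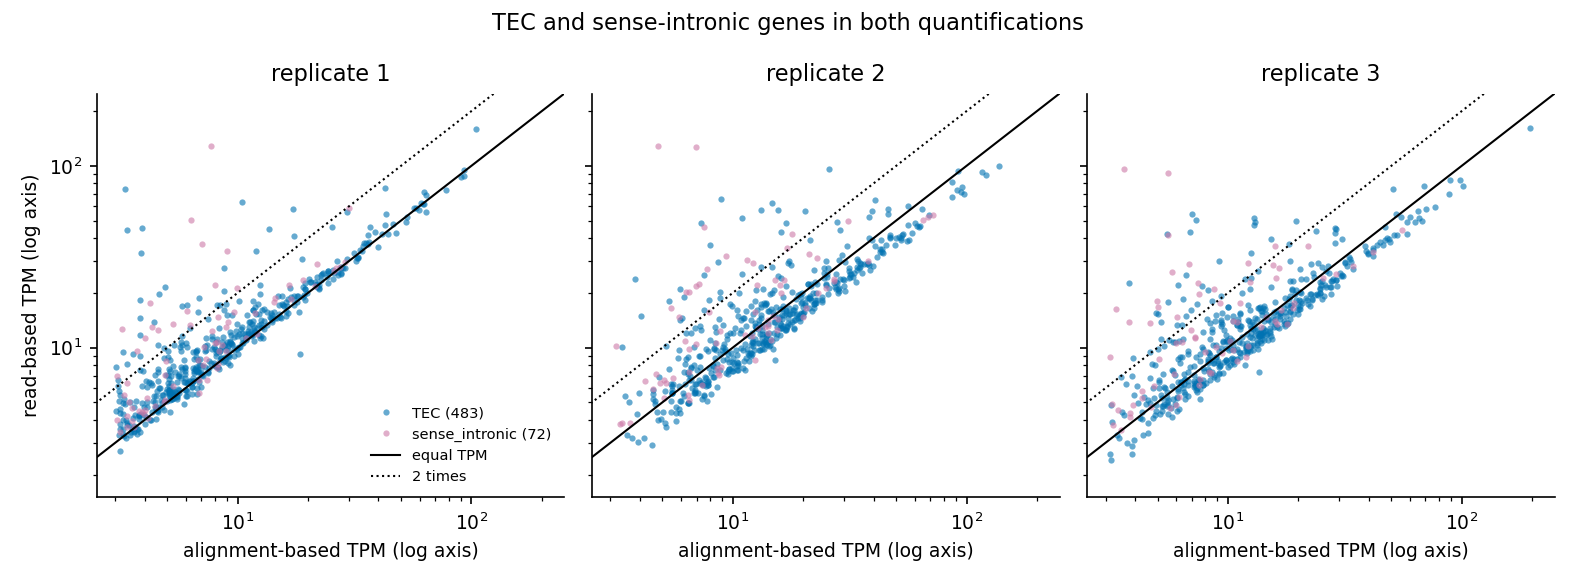
Read-based against alignment-based TPM of each gene in replicates 1, 2 and 3 (both axes log), coloured by biotype, with lines at equal TPM and at 2 times. Points follow the equal line, lie slightly below it at high TPM in replicates 2 and 3, and reach far above it for Gm16155 and Gm47921.

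Choice of method changed the list itself more. By reads, 1047 of the 3542 genes (29.6%) had a TPM of at least 3 in each library, against 24.4% of all annotated genes, and 550 of the 556 were among them. The other 497 had a median of only 0.20, 0.24 and 0.25 TPM by alignment but 5.81, 9.55 and 8.36 by reads. Of these 497, 59.96% had a same-strand host.

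Agreement between libraries was slightly poorer than for other genes. The median SD over the 3 libraries of log2 CPM, with TMM factors, was 0.28 for the 556 genes, 0.24 for all genes past the threshold and 0.22 for protein-coding ones. Without replicate 1 it was 0.14 against 0.12. By CPM, replicate 1 was the lowest library for 291 genes (52.3%), against 40.6% of all genes past the threshold. Its median difference from the mean of replicates 2 and 3 was -0.15 for the 556 genes and 0.02 for all genes past the threshold on the log2 scale. Among intronic genes 265 of 436 were lower in replicate 1, and among their 314 hosts 150 were. Depth, RNA input and fragment length all set replicate 1 apart, and their part in this was not tested.

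Beside Gm47089, the 5 genes of highest SD included Gm42658, in the actin-capping gene Capza1, with 5.32, 21.2 and 16.5 TPM. Gm49784, also among them, lay in the aminopeptidase gene Lnpep and had 3.11, 13.8 and 9.38. Both were low in replicate 1. Gm44258, in the phosphatase gene Ptpro, was high in replicate 2 and low in replicate 3, with 7.38, 15.6 and 3.82. These values rest on only 14, 18 and 5 counts.

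Length and base composition were close to those of the rest of the classes. The median transcript length was 2037 bases against 1854 below the threshold, and median GC content was 42.5% against 42.4%. Intronic genes past the threshold lay in shorter introns, with medians of 19259 and 38465 bases, and in shorter hosts, with medians of 97131 and 202321 bases. Of them 20.7% were in the first gap between exons of the host, with the exons of all its transcripts merged, against 22.6% below the threshold. Chromosomes 5, 1 and 3 held the most, with 92, 80 and 59 genes. They also hold the most annotated genes of these classes, with 539, 506 and 388, while chromosome X has 6 of them and none past the threshold.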

How the data were processed

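Per the file headers, the authors deposited expected counts and TPM per gene and per transcript for each library, and estimated counts and TPM of a separate transcript quantification. The notes deposited alongside name build mm10 and GENCODE M21, and describe the former as made from a transcriptome alignment and the latter from the reads directly. Effective lengths and 95% bounds are the authors' deposited values, read as they stand. Program versions and strand settings: not given in the sources used here.

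Read-based transcript TPM and counts were summed per gene. Context, hosts and lengths were taken from the GENCODE M21 annotation. A host is the overlapping same-strand gene of highest mean TPM, with genes spanning under 200 bases and genes of these classes left out. Levels are log2(TPM + 0.1), and "in each library" means in all 3. CPM used expected counts and library sizes with TMM scaling (edgeR 4.0.16, R 4.3.3), and log2 CPM a prior of 0.5. The TMM factors were estimated from counts rounded to whole numbers, over genes of at least 10 counts in all. One test was run, an exact two-sided sign-flip test over libraries. DESeq2 1.42.0 size factors were an alternative. Python 3.11.15, pandas 2.3.3 and numpy 2.4.6 were used. The code was tested on simulated data.

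Depth was 10293545 to 17820066 expected counts per library, so a gene at a TPM of 3 rests on few reads where its effective length is short. The median over the 556 genes of the lowest count was 171.

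The genes, gene lists and named genes were chosen with earlier results of these data known. Named genes are the 20 of highest mean TPM, the 10 highest sense_intronic, the 5 highest and lowest differences between quantifications, the 5 of highest SD, the 3 nearest the threshold on each side, and those in hosts on a list. Some of them are not reported here. Alternatives were other thresholds, pseudocounts, read-based values, rescaled TPM, other hosts and leaving out each replicate. A-rich sequence past annotated ends and repeat content were not analysed here. Promoter sequences were not used.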

Additional observations from a re-analysis of the deposited data

How the results depend on the processing

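With 3 libraries and no control group, the exact sign-flip test cannot go below p = 0.25, and each count rests on the alignment-based table and on replicate 1, the shallowest library. Of 57 alternatives over 10 results, 12 moved and 45 did not, where moved means by over 1 SD for levels and by over 1.5 times for counts and for the replicate SD. For the host test only a change of direction was counted as moved, so its alternatives are all among the 45 whatever their size. The genes' levels in these same libraries set its groups of hosts, so nothing is read from the direction that held. The list of 556 genes became 908 at a TPM of at least 1, 177 at a TPM of at least 10, 1047 with read-based TPM and 888 with TPM rescaled after leaving out mitochondrial genes and genes whose effective length was under 200 bases. Leaving out 1 replicate gave 562 to 708 genes, the most without replicate 1. The read-based minus alignment-based difference of -0.02 (log2) became 0.68 when read-based TPM chose the genes, and was -0.06 to 0.05 with 1 replicate left out. With counts scaled to library size in place of TPM it was -0.13 ± 0.02 (SD, n = 3). The difference to the host of -1.80 became -2.17 with read-based TPM for both, and was -1.87 to -1.74 with 1 replicate left out. The difference of 6.74 between hosts and other hosts ranged from 2.19, with hosts of a TPM of at least 1 only, to 7.22 with a pseudocount of 0.01, and the exact p stayed at 0.25 with all 3 libraries. With 1 replicate left out it was 6.61 to 7.20.

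The count of 31 genes over 2 times higher by reads became 7 at 4 times (chosen after seeing the data), and 32 to 67 with 1 replicate left out. The count of 28 genes above their host was 35 with hosts taken from the annotation alone and 15 with read-based TPM (both chosen after seeing the data), and 29 to 63 with 1 replicate left out. Both were highest without replicate 1, at 67 and 63. The replicate SD of 0.28 was 0.14 without replicate 1 and up to 0.29 without replicate 3. Genes near a gene start or end numbered 12 within 5000 bases, 5 within 1000 and 18 within 20000. The poly(A) hexamer count was 129 in the last 50 bases and 155 in the last 100. The count of 0 genes under 1/2 by reads remained 0 with each replicate left out. Under 1/4 it had to be 0, and that alternative is counted among those that did not move. No paired analysis was possible because there is 1 group only. Checks of A-rich sequence and repeats were not run.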
